A study of Homo sapiens with 3 samples.

Results

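Mirtrons are short introns that fold into a miRNA hairpin. Splicing cuts out the intron, the lariat debranching enzyme DBR1 opens it, and the linear intron then resembles a precursor miRNA without having been cut by the nuclear enzyme DROSHA. The cytoplasmic enzyme DICER is still needed to cut off the loop, and the 5p and 3p mature miRNAs come from the left and the right arm of the hairpin. This is the general route, and whether each hairpin described here follows it was not tested. The 10 mirtron hairpins described here are MIR877, MIR1224, MIR1225, MIR1226, MIR1227, MIR1228, MIR1229, MIR1236, MIR1237 and MIR1238, and a cluster was assigned to one of them when the deposited sense-strand annotation named exactly that hairpin. In all, 396 hairpins were named in the deposited lists, and 5 of the 10 mirtrons were among them.

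The RNA came with FLAG-tagged DICER, made from a transgene in the Flp-In HEK293 T-Rex line. This established line derives from human embryonic kidney. PAR-CLIP links a protein to RNA that holds a photoreactive uridine analogue, and each crosslinked uridine can read as a T-to-C conversion after sequencing. The labels name 3 replicates with RNase T1, all of 1 genotype and 1 treatment, and no untagged control or RNA abundance was used here. Whether separate cultures were used is not stated, so the spread between replicates may be technical.

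Each list gives clusters of overlapping reads, with 11577, 18065 and 5099 clusters in replicates 1, 2 and 3 and 8469 in a series-wide list, where each cluster had reads from 2 or 3 replicates. Clusters on miRNA hairpins held 208066, 131427 and 82044 conversions in the 3 replicates. Conversions are counts that were not scaled to depth, and reads without molecular identifiers are not independent molecules. Intervals given below therefore cover counting error only.

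The hairpins of the 5 mirtrons with a cluster are shown because their clusters began at or within 1 base of the left end of the hairpin. This end is the 5' splice site of the host intron. Outside MIR1226 it was itself placed from the clusters, as described below. The sequences are RefSeq hairpins of GRCh38.p14, read 5' to 3' on the strand of the host gene. Capital letters mark the uridines that the authors listed as the crosslink centre of a cluster in any of the 4 lists.

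MIR1226: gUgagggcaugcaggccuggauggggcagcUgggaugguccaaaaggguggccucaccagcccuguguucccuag
MIR1229: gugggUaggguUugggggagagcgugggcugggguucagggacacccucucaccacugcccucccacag
MIR1228: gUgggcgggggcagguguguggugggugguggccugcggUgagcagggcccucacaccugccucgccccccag
MIR1225: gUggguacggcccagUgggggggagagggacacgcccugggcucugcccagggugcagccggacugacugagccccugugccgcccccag
MIR1224: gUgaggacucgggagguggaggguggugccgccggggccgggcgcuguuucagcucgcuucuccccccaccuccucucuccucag

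All 10 mirtrons begin with GU and end with AG, the bases at the ends of most introns. Of the 1550 other hairpins in the RefSeq sequence table, 1.68% do. A mirtron is an intron, so these ends follow largely from the choice of the 10. For the 5 mirtrons with a cluster the 5p miRNA starts at the first intron base. Its seed (bases 2 to 8) thus overlaps the sequence of the 5' splice site. The 5p miRNAs of MIR877, MIR1227 and MIR1238, which had no cluster, start at the same base. Those of MIR1236 and MIR1237, also without a cluster, start at hairpin positions 2 and 50. The 5p miRNAs of the 5 mirtrons with a cluster are given with the seed in capitals.

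miR-1226-5p: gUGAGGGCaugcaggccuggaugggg
miR-1229-5p: gUGGGUAGgguuugggggagagcg
miR-1228-5p: gUGGGCGGgggcaggugugug
miR-1225-5p: gUGGGUACggcccagugggggg
miR-1224-5p: gUGAGGACucgggaggugg

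No 2 of the 10 mirtrons shared a whole seed on the 5p side, and none did on the 3p side.

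MIR1226 held nearly all of the signal on these hairpins, and the other mirtrons stood near or below the typical hairpin. Replicates 1, 2 and 3 had clusters on 4, 5 and 2 mirtrons. The series-wide list named 5 of 10, where 15.4% of miRNA genes were named. MIR1226 and MIR1229 had a cluster in all 3 replicates, MIR1228 and MIR1225 in replicates 1 and 2, and MIR1224 in replicate 2 alone. Thus 2 of 10 had a cluster in all 3 replicates, where 8.26% of 1913 miRNA genes in the RefSeq gene table did. A cluster in at least 1 replicate was listed for 5 of 10, where 19.9% of miRNA genes had one. The first count became 4 without replicate 3, which had the fewest clusters, and 1 (MIR1226) when only clusters with 3 or more distinct reads were kept. The share of all miRNA genes under these settings was not computed, so these counts have no background beside them.

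MIR1226 lies within DHX30, which encodes an RNA helicase, in intron 21 of 1 annotated coding transcript and intron 20 of another. In hg19 its cluster ran from 47891044 to 47891120 on the plus strand of chromosome 3 in the series-wide list. It had 2370, 2556 and 2798 conversions in the 3 replicates in their order, a mean of 2575 ± 215 (SD, n = 3). The 3 values lay close together, while conversions on all hairpins ranged from 82044 to 208066. Their coefficient of variation was 8.34%, and 0 of the 160 hairpins with a cluster in all 3 replicates had a lower one. The median of the others was 78.1%. This measure was chosen after the values had been seen. It uses counts not scaled to depth, so it does not rank hairpins by how steady their share was. The MIR1226 share of hairpin conversions, given next, differed far more between replicates.

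As a share of hairpin conversions, MIR1226 held 1.14% in replicate 1 (Wilson 95% interval 1.09 to 1.19), 1.94% in replicate 2 (1.87 to 2.02) and 3.41% in replicate 3 (3.29 to 3.54). The mean was 2.16% ± 1.15 (SD, n = 3). The spread between replicates was far wider than these intervals, which take each conversion as independent and so are too narrow. By distinct reads, which count each read sequence and position once, it had 182, 116 and 67 and held 1.96% ± 0.691 of those on hairpins (SD, n = 3). The shares by distinct reads were 1.87% (1.62 to 2.16), 1.32% (1.10 to 1.58) and 2.70% (2.13 to 3.41) in replicates 1, 2 and 3. Here the intervals of replicates 1 and 3 overlapped. Distinct reads were highest in replicate 1 and lowest in replicate 3, the reverse of the order of conversions. There were 18.3, 23.97 and 45.8 reads per distinct read.

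Among hairpins with a cluster MIR1226 ranked 16 of 313, 7 of 298 and 4 of 192 by conversions in replicates 1, 2 and 3, and 10, 17 and 9 by distinct reads. In the series-wide list it ranked 9 with 5925 conversions. Its nearest neighbours there were hairpins that are not mirtrons, hsa-mir-222 with 7275, hsa-mir-26b with 6067, hsa-mir-744 with 5353 and hsa-mir-423 with 4090. The replicates gave those 4 a different order: hsa-mir-26b had 4904, 1531 and 802 conversions, and hsa-mir-423 had 1601, 2438 and 965. By conversions MIR1226 thus stood above hsa-mir-26b in replicates 2 and 3 and below it in replicate 1. By distinct reads it stood below hsa-mir-26b in replicates 1, 2 and 3, with 182, 116 and 67 against 301, 233 and 78.

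**Figure D1:**
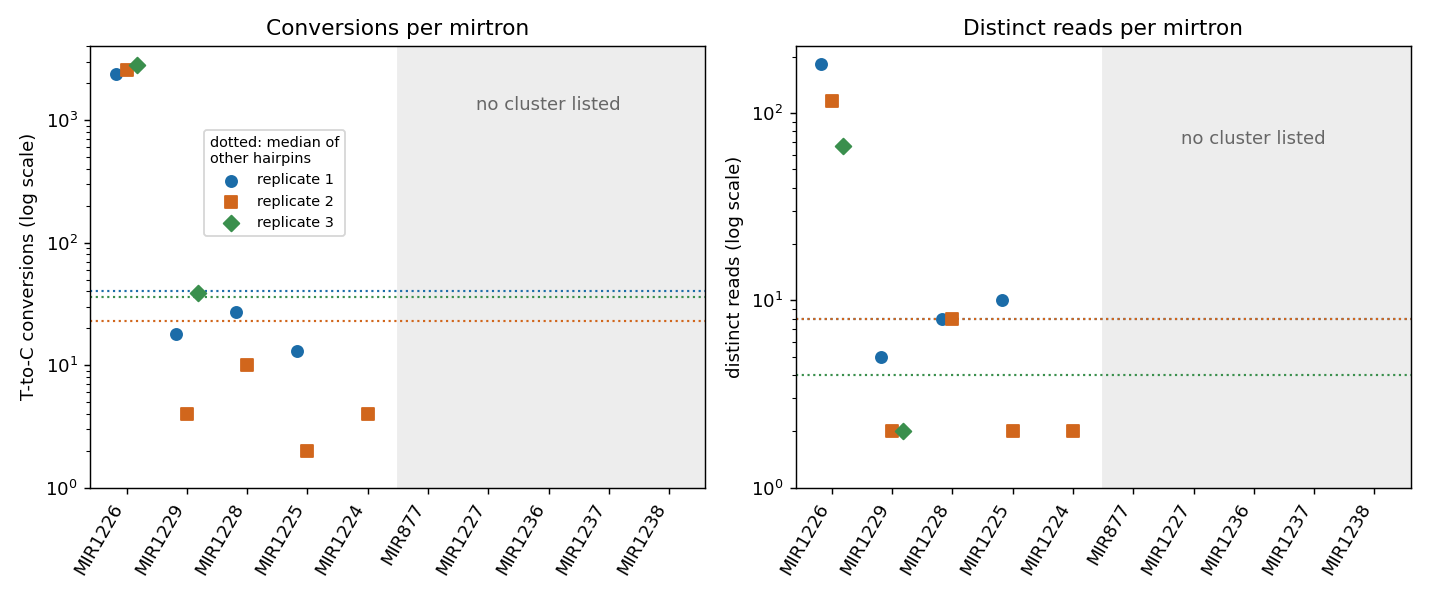
T-to-C conversions (left) and distinct reads (right) of the 10 mirtrons on log axes, 1 point per replicate with a cluster; dotted lines give the median over the other hairpins with a cluster in the same replicate. MIR1226 lies between 2370 and 2798 conversions, and all other mirtrons with a cluster lie at or below 39.

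MIR1229 lies within MGAT4B, a glycosyltransferase of N-glycan branching, in intron 13 or 12 by transcript (chromosome 5, 179225308 to 179225346, minus strand). The replicates gave 18, 4 and 39 conversions. These came from only 5, 2 and 2 distinct reads, so the highest value rested on 2 read sequences counted many times. The median of the other hairpins with a cluster was 40, 23 and 36 conversions, so MIR1229 was below it in replicates 1 and 2 and just above it in replicate 3. The mean was 20.3 ± 17.6 (SD, n = 3).

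MIR1228 lies within intron 49 of LRP1, a large endocytic receptor (chromosome 12, 57588287 to 57588339, plus strand). It had 27 conversions in replicate 1 and 10 in replicate 2, from 8 distinct reads in each, and no cluster was listed in replicate 3. Both values were under the median of the other hairpins, while its distinct reads equalled their median of 8.

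MIR1225 lies within intron 45 of PKD1, which encodes polycystin-1 (chromosome 16, 2140259 to 2140285, minus strand). It had 13 conversions from 10 distinct reads in replicate 1 and 2 from 2 distinct reads in replicate 2. With 10 distinct reads it was above the hairpin median of 8 in replicate 1, although its conversions were below it. PKD1 has partial copies on the same chromosome, and how the authors placed reads shared with copies is not stated.

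MIR1224 lies within intron 18 of VWA5B2 (chromosome 3, 183959193 to 183959215, plus strand), where the annotation also names EIF2B5 on the same strand. It had 4 conversions from 2 distinct reads in replicate 2. The series-wide list gave 24 conversions from 3 distinct reads, with reads from 2 replicates, so reads of a replicate whose own list shows no cluster entered it. The series-wide list was also not a sum elsewhere: MIR1226 had 5925 conversions there against 7724 over the replicate lists.

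**Figure D2:**
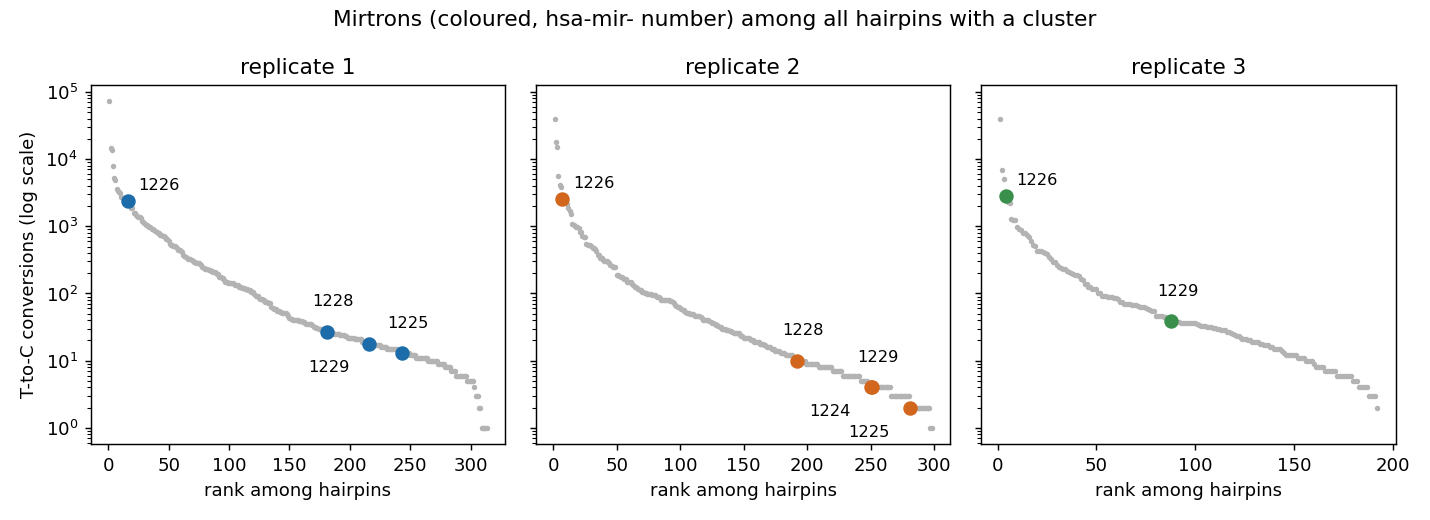
Hairpins with a cluster in each replicate, ranked by T-to-C conversions on a log axis; mirtrons are coloured and carry their hsa-mir number. hsa-mir-1226 ranks 16, 7 and 4, and the best rank of any other mirtron is 88 for hsa-mir-1229 in replicate 3.

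The 10 mirtrons together held 2.19% ± 1.16 of hairpin conversions and 2.12% ± 0.647 of hairpin distinct reads (SD, n = 3). MIR1226 made up 97.6%, 99.2% and 98.6% of the mirtron conversions in replicates 1, 2 and 3, and 88.8%, 89.2% and 97.1% of the distinct reads. Without it the mirtrons held 0.0302% ± 0.0163 of hairpin conversions (SD, n = 3). Of all conversions in the lists, on any RNA, the 10 held 0.302% ± 0.154 (SD, n = 3).

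The clusters began at the 5' splice site and covered the 5p arm. Of the 11 mirtron clusters in the replicates, 10 began exactly at the first base of the intron, and 1 began 1 base upstream. This was the MIR1226 cluster of replicate 3, which the annotation places partly in the exon before the intron. A change of 1 base, from 47891045 in replicates 1 and 2 to 47891044 in replicate 3, added that exon to the annotation and so located the exon-intron border. For the other 4 mirtrons the common left end of the clusters was taken as the first base. At least 1 cluster of each thus began there by construction, and for MIR1224, with a cluster in 1 replicate, no other result was possible.

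All 16 crosslink centres over the 4 lists fell on a uridine of the RefSeq hairpin when positions were counted from that base. With the hairpin shifted by 1 base in either direction, 3 of 16 did, and shifted by 2 bases, 0 of those still on the hairpin did. The count bears on the position assigned to the hairpin, since only uridines give T-to-C conversions. The 16 centres lay at 9 different positions and are not independent. Sites recur between lists, and the series-wide list draws on reads of the replicates.

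Clusters covered the whole 5p miRNA in 11 of 11 cases and reached the 3p miRNA in 2 of 11. MIR1226 was covered from position 1 to 76 in replicate 1, which is the whole hairpin of 75 nt and 1 base of the next exon. Its cluster ended at position 53 in replicate 2, the base before the 3p miRNA, and at 46 in replicate 3. MIR1229 was covered to positions 39, 26 and 31 in replicates 1, 2 and 3, with its 3p miRNA starting at 47. MIR1228 was covered to 38 in replicate 1 and to 53 in replicate 2, which is 2 nt into its 3p miRNA. MIR1225 was covered to 27 and 22 in replicates 1 and 2, and MIR1224 to 23 in replicate 2. Cluster ends differed between replicates, and the left end did so only in replicate 3 of MIR1226, by 1 base.

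**Figure D3:**
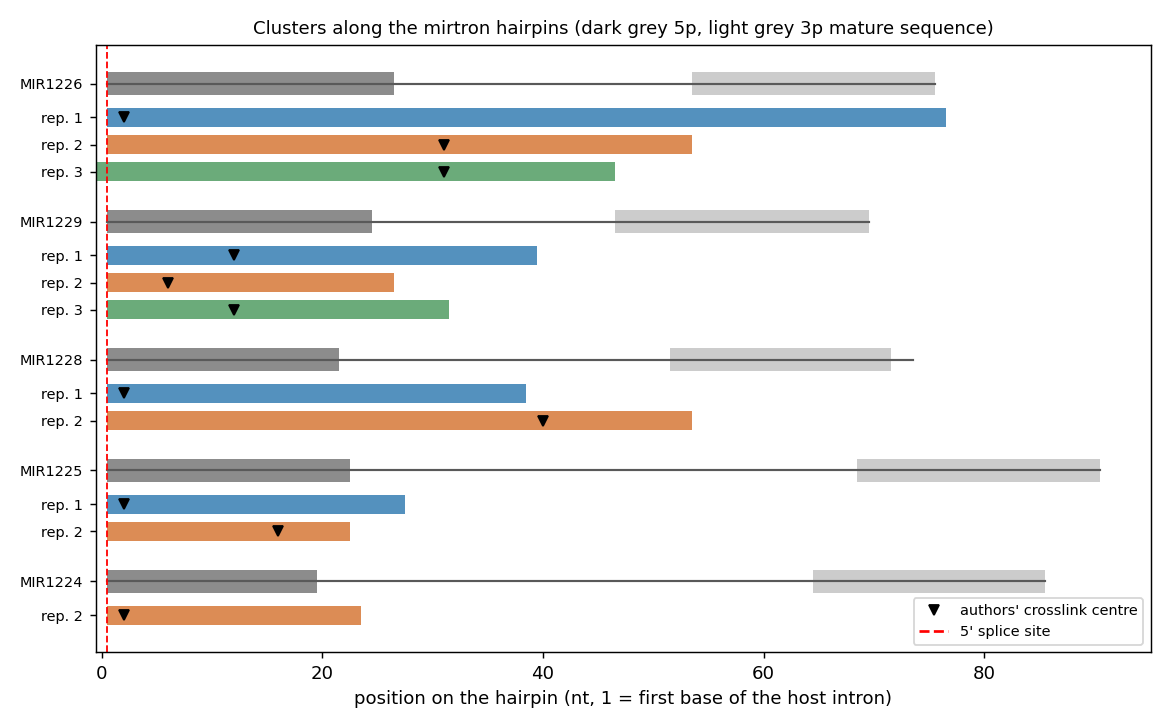
Clusters of the 3 replicates (coloured bars) along the 5 mirtron hairpins, in nt from the first intron base; dark and light grey bars are the 5p and 3p miRNAs and triangles the authors' crosslink centres. Every bar begins at the 5' splice site (dashed line), apart from the replicate 3 bar of MIR1226 that begins 1 base before it. Outside MIR1226 this site was placed from the left ends of the clusters. The MIR1226 bar of replicate 1 and the MIR1228 bar of replicate 2 reach the 3p miRNA.

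The 9 different crosslink centres lay mostly in the left arm, with 7 of them within the 5p miRNA. Position 2, the uridine of the GU at the 5' splice site, was a centre in 4 of the 5 mirtrons: MIR1226 in replicate 1, MIR1228 in replicate 1, MIR1225 in replicate 1 and MIR1224 in replicate 2. In MIR1226 the centre was position 31, between the 5p and 3p miRNAs, in replicates 2 and 3. In MIR1229 it was position 12 in replicates 1 and 3 and position 6 in replicate 2. MIR1228 and MIR1225 had centres at positions 40 and 16 in replicate 2. In minimum free energy structures predicted from the hairpin sequence alone, 4 of the 9 centres were paired and 5 were unpaired.

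In MIR1226 conversions spread over 9, 8 and 5 positions in replicates 1, 2 and 3, where the covered parts of the hairpin held 14, 8 and 7 uridines. In replicate 2 every covered uridine could thus have been converted, and in replicate 1 at least 5 were not. There were 0.712, 0.919 and 0.913 conversions per read, against medians of 0.917, 0.957 and 1 over clusters of other hairpins. The other mirtrons had 1 or 2 converted positions in each replicate.

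A mirtron hairpin spans the intron and so borders both splice sites. A 5' splice site was touched by 11 of 11 mirtron clusters and a 3' splice site by 1 of 11, the MIR1226 cluster of replicate 1. In the other sets, too, the share at a 3' splice site lay below the share at a 5' splice site in each replicate. The 3' share was 2.72%, 1.89% and 0.935% of clusters on other hairpins and 3.88%, 1.95% and 1.55% of intron clusters without a hairpin. For the 5' splice site, the latter share was 6.79%, 3.65% and 4.54%. Among clusters on other hairpins, 4.23%, 3.79% and 4.67% touched a 5' splice site in replicates 1, 2 and 3, and among all clusters 1.97%, 1.53% and 1.96% did. Most other hairpins do not lie at a splice site, so these shares give the background and not a like-for-like comparison. Where other hairpins lay in an intron of a coding transcript the share was 7.14%, 6.38% and 8.26%. An exon of the host was named for 2 of the 11 mirtron clusters, both on MIR1226: the exon after the intron in replicate 1 and the exon before it in replicate 3.

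**Figure D4:**
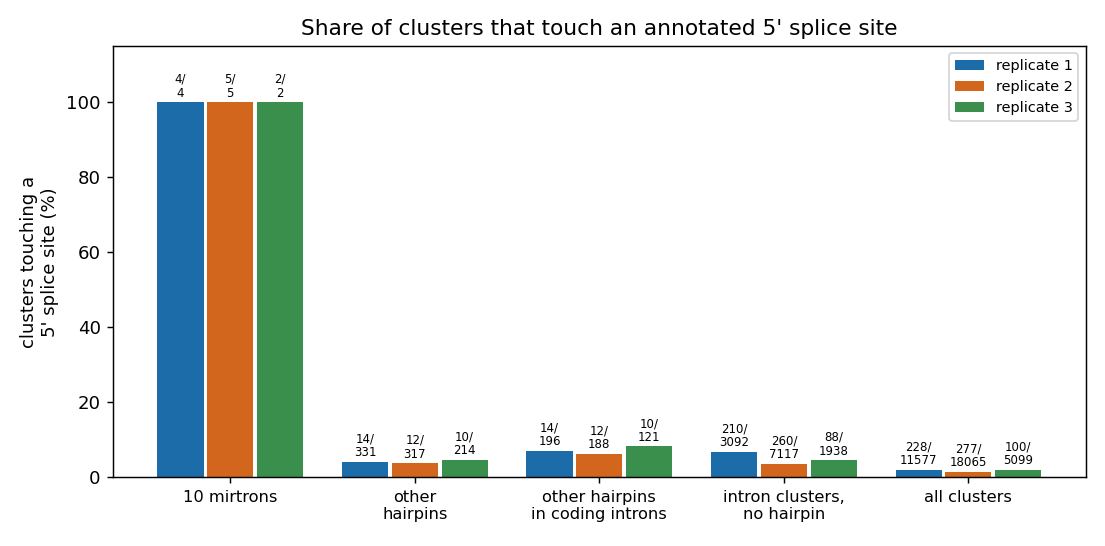
Percent of clusters that touch an annotated 5' splice site in each replicate, for the 10 mirtrons, other hairpins, other hairpins in introns of coding transcripts, intron clusters without a hairpin, and all clusters; the counts stand above the bars. Every mirtron cluster does (4, 5 and 2 clusters), and all other bars lie below 9%.

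Of all clusters that touched a 5' splice site, hairpin or not, the one on MIR1226 had the most conversions in each of the 4 lists. Its share of the conversions of such clusters was 15.0%, 20.5% and 31.0% in the 3 replicates, a mean of 22.2% ± 8.08 (SD, n = 3). By distinct reads its share of these clusters was 8.16% ± 2.74 (SD, n = 3).

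Outside the mirtron, each host transcript other than PKD1 had 0 to 2 clusters per list, and PKD1 had 1 to 5. In DHX30, a cluster within an upstream coding exon was found in all 3 replicates (chromosome 3, 47884659 to 47884693 in the series-wide list), with 40, 7 and 26 conversions against 2370, 2556 and 2798 on MIR1226. A further DHX30 cluster in replicate 2 had 4. MGAT4B had 2 other clusters in the replicate lists, both in replicate 2, with 10 and 2 conversions. LRP1 and VWA5B2 had no cluster outside the mirtron in any list.

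PKD1 had clusters at the 5' splice sites of 2 other introns, with more conversions than its mirtron in all but 1 of the comparisons within a replicate. At intron 44, directly upstream of the mirtron intron, a cluster at the 5' splice site (2140630 to 2140674 in the series-wide list) had 9, 23 and 35 conversions in replicates 1, 2 and 3. At intron 36 (2143754 to 2143811) there were 87 and 33 in replicates 1 and 2. The mirtron in intron 45 had 13 and 2 in the same 2 replicates and no cluster in replicate 3. The order of intron 44 and the mirtron differed between replicates 1 and 2.

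No cluster named MIR877, MIR1227, MIR1236, MIR1237 or MIR1238 in any of the 4 lists. A hairpin without a listed cluster can still have had reads below the authors' thresholds, and the lists give no level for it. By position in the RefSeq gene table their host genes are ABCF1, a ribosome-associated ATPase (MIR877), PLEKHJ1 (MIR1227), NELFE, a subunit of the negative elongation factor (MIR1236), RPS6KA4, a stress-activated kinase (MIR1237), and ATG4D, an autophagy protease (MIR1238). ABCF1 and NELFE had no cluster anywhere. RPS6KA4 had 1 exonic cluster with 2 conversions and ATG4D had 2 clusters with 10 and 5, all in replicate 2 alone.

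PLEKHJ1 was different: its mirtron MIR1227 had no cluster, but another hairpin of the same gene, hsa-mir-6789 in intron 2, had 1852, 1677 and 1239 conversions from 69, 78 and 50 distinct reads. Its cluster (minus strand of chromosome 19, series-wide 2235828 to 2235922) also touched a 5' splice site and ranked 2 by conversions among such clusters in each of the 4 lists, after MIR1226. In replicate 1 the hairpin had 2 clusters, and the one at the splice site held 1662 of the conversions.

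The mirtrons without a cluster overlapped those with one in length and base composition. Those with a cluster were 69 to 90 nt long and those without 83 to 102 nt, with medians of 75 and 88. The first 30 bases held 3 to 7 uridines in the first set and 2 to 7 in the second, with a median of 5 in both. G and C made up 64.0% to 75.3% and 54.9% to 77.5% of the bases. With 5 hairpins in each set and the sets made from the readout, these ranges are a description.

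Of 14 genes of the mirtron pathway and the neighbouring canonical pathway, 5 had a cluster in all 3 replicates on their own transcripts, where 7.93% of 20056 protein-coding genes in the RefSeq gene table did, whether expressed in these cells or not. These were DROSHA with 458, 153 and 193 conversions, DGCR8, its partner in the Microprocessor that mirtrons bypass, with 47, 2 and 34, AGO2, which loads mature miRNAs, with 59, 37 and 5, TUT4, which adds uridines to precursors, with 39, 8 and 29, and DICER1 with 2371, 1634 and 389. The cells carry a DICER transgene, and reads from it were not separated from those of the gene. DBR1, which opens the intron lariat, had 4 conversions in replicate 2 and no cluster in replicates 1 and 3. XPO5, the exporter of precursor hairpins, and AGO4 had no cluster in any replicate.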

How the data were processed

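The authors deposited cluster lists for the 3 replicates and for the whole series, with T-to-C conversions per cluster as whole-number counts not scaled to depth. Per the submitters' processing notes, Bowtie2 2.1.0 and the hg19 build were used, and no version is stated for the clustering program. Replicate lists were filtered by length and the false discovery rate was estimated at 5%, per the file attributes. The authors' deposited entropy score was read and not used.

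Clusters were assigned by the exact hairpin name in the sense annotation, and reads, distinct reads, splice-site classes and crosslink centres came from the same attributes. There was 1 group, so each replicate's value or the mean ± SD is reported and no test was made. The members, lists and measures were chosen with earlier results of these data known. All 10 members are named. The planned list of host genes held PLIN3 for MIR1227, and the RefSeq gene table gave PLEKHJ1, which was used. Of 396 hairpin names, 390 matched that table (GRCh38.p14), and all 10 members had a hairpin sequence. Structures were predicted with RNAfold 2.7.2, and other values were computed with Python 3.11.15 and SciPy 1.17.1. Name matching and hairpin positions were tested on 200 simulated clusters, and 100% were recovered. The first intron base was given in that test. It therefore checks the conversion of coordinates and not how that base was set in the data.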

Additional observations from a re-analysis of the deposited data

How the results depend on the processing

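Of 34 recomputed values, 26 stayed within the spread between replicates (or within 1.5 times, for counts) and 8 moved. For shares, leaving out 1 of 3 replicates cannot move the mean by 1 SD. Those settings were therefore bound to fall among the 26 and say nothing about stability. Shares and counts of 1 group have no direction, so none could reverse. The number of mirtrons with a cluster in all replicates used was 2. It was 2 to 4 when 1 replicate was left out and 1 with 3 or more distinct reads. The share of all miRNA genes under these settings was not computed. Assignment by position left the number of mirtrons unchanged. The positions were those of series-wide clusters picked by hairpin name from the same data, so this setting could hardly differ. With 3 or more distinct reads, 7 of the 11 mirtron clusters, on 4 mirtrons, were left. The mirtron share of hairpin conversions was 0.0302% without MIR1226. Weighted by distinct reads, the shares among mirtrons were 91.7% for MIR1226, 3.35% for MIR1228, 2.29% for MIR1229, 2.14% for MIR1225 and 0.513% for MIR1224, against 98.5%, 0.5001%, 0.757%, 0.204% and 0.0518% by conversions. Leaving out 1 replicate changed 4 of these by over 1.5 times. Without replicate 1, MIR1225 held 0.0388% and MIR1228 0.194%. Without replicate 2 MIR1224 held 0%, and without replicate 3 MIR1229 held 0.448%. Each lay within 1 SD, a limit that this setting could not exceed. The share of mirtron clusters at a 5' splice site was 100% with 3 or more distinct reads, an alternative chosen after seeing the data. All 11 clusters touched such a site, so the filter could not change this share. No paired analysis was possible because all 3 replicates form 1 group. Outside MIR1226, each value rests on 10 or fewer distinct reads, which limits the order among those mirtrons.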

Other observations

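Hairpins outside the 10 mirtrons also had clusters at a 5' splice site, in 14, 12 and 10 cases in replicates 1, 2 and 3 and 9 in all 3. They were selected after the data were seen, by that position alone. The values given here cover all clusters of a hairpin, including any away from the splice site. After hsa-mir-6789, the most conversions were on hsa-mir-3620, within ARF1, with 1171, 257 and 181 from 73, 57 and 17 distinct reads. The hairpin hsa-mir-6765, within JAG2, had 372, 68 and 12 conversions from 60, 33 and 7 distinct reads. The hairpin hsa-mir-6821 had its lowest value in replicate 1, with 21, 94 and 124 conversions from 10, 45 and 26 distinct reads. Its clusters at the splice site held 15, 90 and 124 of these conversions. For hsa-mir-3620 in replicate 1, the cluster at the splice site held 1168. In the series-wide list, the clusters of hsa-mir-6789, hsa-mir-3620, hsa-mir-6765 and hsa-mir-6807 touched a 3' splice site as well, as that of MIR1226 did.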
